A study of Mus musculus with 12 samples.

Results

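The expression of 6 islet peptide hormone genes (Ins2, Iapp, Gcg, Sst, Ppy and Pyy) and of the transthyretin gene Ttr was described in MIN6, a cultured line of insulin-secreting mouse tumour cells. Every probe set, that is, every group of short oligonucleotides designed to one transcript, was taken whose annotation names exactly 1 of these 7 genes and no other. This gave 10 probe sets for 7 of the 15964 genes measured, with 8 probe sets on chip A and 1 each on chips B and C of an Affymetrix mouse set (MG-U74v2). Ins2, Gcg and Ppy had 2 probe sets each and the other genes 1.

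RNA was compared in 4 populations. Pr-HP were parental MIN6 cells at passages 35 to 40, C4-HP were cells of the MIN6 clone 4 at passages 40 to 50, C4-LP were clone 4 cells at passages 17 to 20, and Pr-LP were parental cells at passages 17 to 20. All of them were grown in the same high-glucose medium without a further treatment, all descend from 1 transformed line, and clone 4 is a single subclone of it. The study grouped C4-HP, C4-LP and Pr-LP as responder cells, because they secreted insulin in response to glucose, and set them against Pr-HP, which had lost this response. Each population was hybridised once to each chip, so no value has a replicate array, a ratio of 2 populations carries no test, and means over the 3 responder populations are given with an SD that is a spread between different populations.

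Each endocrine cell type of the islet is known by a leading peptide. β cells make insulin and co-secrete the islet amyloid polypeptide, α cells make glucagon, δ cells somatostatin, and PP cells pancreatic polypeptide, while peptide YY is a related peptide of islet and gut endocrine cells. Transthyretin is a carrier of thyroid hormone and retinol-binding protein made mainly by liver and choroid plexus, and in islets it is also found in α cells.

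The bases directly before the annotated starts of Gcg, Ppy, Iapp and Sst are printed 5′ to 3′ on the gene's own strand, from RefSeq, build GRCm38.p6. Gcg spanned more than 2-fold across the populations by both of its probe sets. Ppy did so only by the less intense of its probe sets, while Iapp and Sst stayed nearly level. The windows are chr2:62483654-62483903 (minus strand) for Gcg, chr11:102101320-102101569 (minus strand) for Ppy, chr6:142298175-142298424 (plus strand) for Iapp and chr16:23890845-23891094 (minus strand) for Sst. Capitals mark matches, on either strand, to the TATA box (TATAAA), the cAMP response element (TGACGTCA), the homeodomain core (TAAT) and the E box (CANNTG).
Gcg: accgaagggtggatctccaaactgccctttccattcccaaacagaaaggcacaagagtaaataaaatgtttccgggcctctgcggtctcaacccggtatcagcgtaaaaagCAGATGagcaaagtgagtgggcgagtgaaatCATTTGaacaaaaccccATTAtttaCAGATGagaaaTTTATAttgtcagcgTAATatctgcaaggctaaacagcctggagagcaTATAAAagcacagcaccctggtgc
Ppy: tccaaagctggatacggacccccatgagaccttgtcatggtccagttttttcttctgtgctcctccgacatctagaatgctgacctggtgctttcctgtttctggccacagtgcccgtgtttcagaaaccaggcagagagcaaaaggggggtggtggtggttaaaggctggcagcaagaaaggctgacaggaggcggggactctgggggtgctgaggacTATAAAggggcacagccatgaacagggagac
Iapp: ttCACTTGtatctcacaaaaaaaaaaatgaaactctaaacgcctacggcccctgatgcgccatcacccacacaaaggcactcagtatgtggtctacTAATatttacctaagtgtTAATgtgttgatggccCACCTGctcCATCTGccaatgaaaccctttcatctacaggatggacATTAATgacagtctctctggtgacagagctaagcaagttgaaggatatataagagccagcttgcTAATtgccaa
Sst: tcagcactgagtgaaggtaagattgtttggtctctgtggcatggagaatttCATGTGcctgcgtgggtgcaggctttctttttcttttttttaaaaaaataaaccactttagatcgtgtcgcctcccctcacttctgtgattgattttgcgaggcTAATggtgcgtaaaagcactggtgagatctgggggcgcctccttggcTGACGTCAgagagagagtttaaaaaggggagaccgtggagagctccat

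Among 32817 mouse promoter windows of the same 250 bases, 12.4% held a TATA box match, 1.55% a cAMP response element, 54.9% a homeodomain core and 66.2% an E box. The Gcg window held 2 TATA box matches, whose first bases lay 72 and 24 bases before the start, together with 2 homeodomain cores and 3 E boxes. That of Ppy held 1 TATA box match, 31 bases before the start, and no match to the other motifs. Iapp had 5 homeodomain cores, of which those at 74 and 72 bases before the start overlap, and 3 E boxes. Sst was the one gene of these with a cAMP response element, 48 bases before the start, beside 1 homeodomain core and 1 E box. Pyy has 2 annotated starts whose windows overlap and hold the same 1 E box, 92 bases before one start and 36 before the other. The promoters of Ins2 and Ttr are not printed here. A match describes the letters only.

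The 10 probe sets fell into those that were nearly level and those that varied over a wide range. All 10 passed the filter on low values, which required 1 array above the 40th percentile of the chip. The less intense Ppy probe set, which is the one counted below, passed it only through Pr-LP, where it was highest. The highest population exceeded the lowest by more than 2-fold in 4 of the 10 (both of Gcg, 1 of Ppy and that of Ttr), against 6.64% of all 23347 probe sets that passed. It did so by more than 8-fold in 3 of the 10 (both of Gcg and that of Ttr), against 0.223% of all, or 52 probe sets. The other 6 spanned between 1.05-fold and 1.55-fold.

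**Figure D1:**
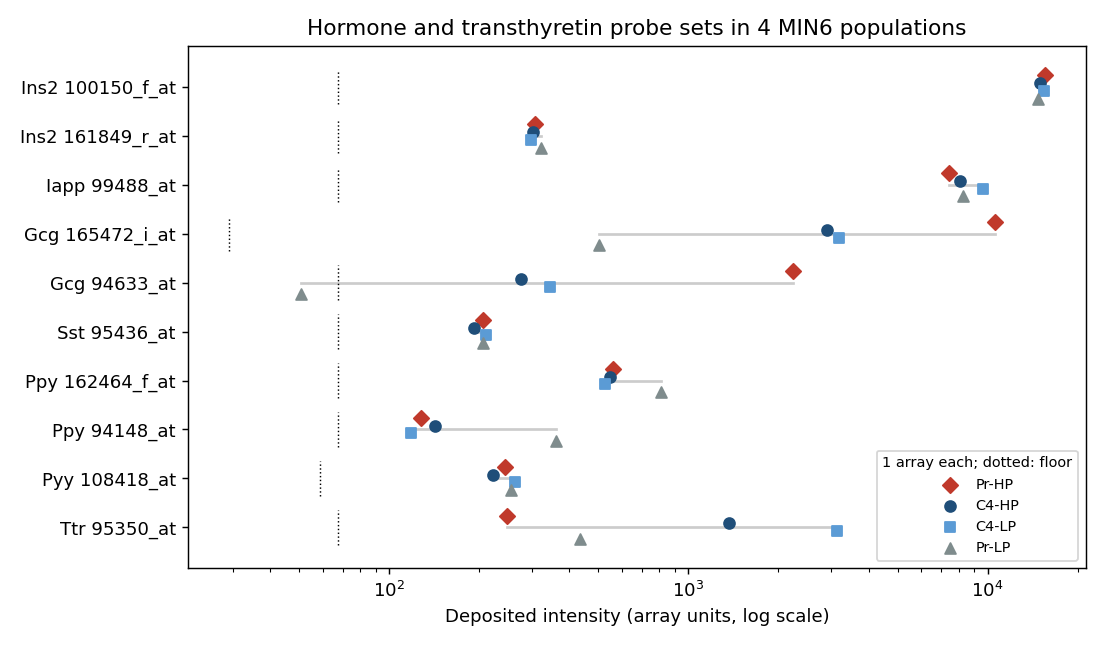
Intensity (log x axis, array units) of each of the 10 probe sets, with 1 symbol for the array of Pr-HP, C4-HP, C4-LP and Pr-LP, a grey bar for their span and a dotted line at the floor, the 20th percentile of the chip. Names ending in f_at are the family probe sets, and that ending in i_at is the Gcg probe set of chip C. The symbols of Ins2, Iapp, Sst and Pyy nearly coincide, both Gcg probe sets are highest in Pr-HP, that of Ttr in C4-LP, and those of Ppy in Pr-LP.

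**Figure D2:**
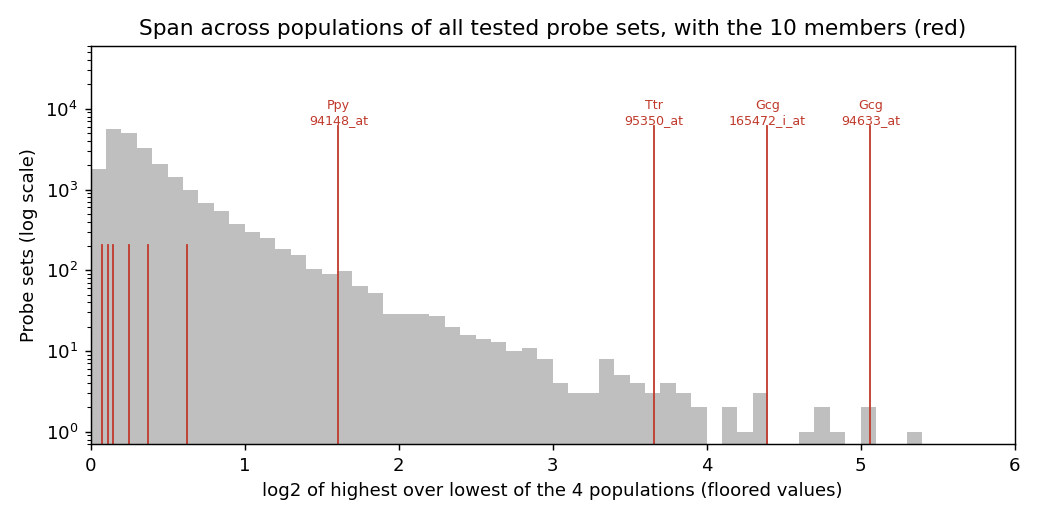
Distribution of the span between the highest and the lowest of the 4 populations (log2 units, x axis) over the 23347 probe sets that passed the filter, with the number of probe sets on a log y axis and red lines at the 10 probe sets described here (tall and labelled where the span exceeds 2-fold). The lines of Gcg and Ttr lie in the thin right tail, beyond a span of 8-fold that 52 probe sets exceeded.

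Ins2 is one of the 2 insulin genes of the mouse. Its family probe set, whose name carries the suffix for probes shared with similar transcripts, had an intensity of 15526 in Pr-HP, against 14919.7 in C4-HP, 15461 in C4-LP and 14771 in Pr-LP. All 4 values thus lay within 1.05-fold of each other, and the probe set ranked 6 or 7 among the 12488 of chip A in every population. The difference between Pr-HP and the responder cells was 0.05 on the log2 scale (SE 0.10, limma adjusted p = 0.923).

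These values lie near the top of the chip's range, and whether they were saturated was not tested. No probe set carries the symbol of the near-identical gene Ins1 in the annotation used here, so Ins1 was not analysed, and its part in this signal was not tested. The other Ins2 probe set read 307 in Pr-HP, 302 in C4-HP, 297.0 in C4-LP and 321 in Pr-LP. It lay within 1.08-fold over the populations and far from the top of the range, with a difference of 0.00 between Pr-HP and the responder cells (SE 0.11, limma adjusted p = 0.994). Its values are far below those of the family probe set, and the share of its signal that comes from Ins2 RNA was not tested. Neither Ins2 probe set passed the test. The family probe set was highest in Pr-HP, just above C4-LP.

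Iapp encodes islet amyloid polypeptide, which is stored in the insulin granule. Its probe set read 7444 in Pr-HP, 8110.5 in C4-HP, 9641 in C4-LP and 8291 in Pr-LP. Pr-HP was the lowest population, at 0.858 times the responder mean of 8681 ± 836 (SD, n = 3 populations). This difference of -0.22 on the log2 scale did not pass the test (SE 0.15, limma adjusted p = 0.715), and the values of all populations lay within 1.30-fold.

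Gcg encodes proglucagon, the precursor of glucagon in α cells and of the glucagon-like peptides in intestinal L cells. The probe set of chip C read 10552 in Pr-HP, 2915 in C4-HP, 3175 in C4-LP and 502 in Pr-LP. Pr-HP was the highest and Pr-LP the lowest, with both clone 4 populations between them and within 1.09-fold of each other. In Pr-HP it ranked 7 on chip C.

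The probe set of chip A gave the same order, with 2244 in Pr-HP, 275 in C4-HP, 346 in C4-LP and 50.6 in Pr-LP. The Pr-LP value lies below the floor of 67.1, under which values of chip A are not distinguished here. Ratios against it are therefore lower bounds.

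Against the responder mean, Gcg was 4.80-fold higher in Pr-HP by the probe set of chip C (responder mean 2197 ± 1474, SD, n = 3) and 10.04-fold higher by that of chip A (224 ± 154, with the deposited Pr-LP value under the floor). With Pr-LP set to the floor, the ratio on chip A was at least 9.79. The log2 differences were 2.66 (SE 1.16, limma adjusted p = 0.562) and 3.60 (SE 1.06, limma adjusted p = 0.445), so that neither passed the threshold over all probe sets. Without Pr-LP, the lowest of the responder populations, they were 1.79 and 2.86 (limma adjusted p = 0.160 and 0.193). The Pr-HP value lay above all 3 responder values in both. At an unadjusted p under 0.05, the Gcg probe set of chip A was the one member that passed, among 2287 or 9.80% of all probe sets tested.

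With passage in the parental line, Gcg was 21.0-fold higher in Pr-HP than in Pr-LP by the probe set of chip C and at least 33.4-fold higher by that of chip A. In clone 4, C4-HP stood at 0.918 and 0.795 times C4-LP. At low passage C4-LP was 6.33-fold and at least 5.15-fold higher than Pr-LP, and at high passage C4-HP was 3.62-fold and 8.17-fold lower than Pr-HP. Both probe sets thus had the same direction in each of these 4 pairs. Each ratio comes from 1 array a population.

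The other α-cell markers did not run parallel to Gcg. Apart from Gcg and Ttr, 4 α-cell markers were analysed (Irx1, Irx2, Pou3f4 and Slc7a2), and their summed intensity was 721 in Pr-HP, against 705 in C4-HP, 894 in C4-LP and 1011 in Pr-LP. The homeobox gene Irx1 read 235 in Pr-HP, against 276 in C4-HP, 475 in C4-LP and 266 in Pr-LP. Slc7a2, a carrier of cationic amino acids, read 371 in Pr-HP, against 299 in C4-HP, 278 in C4-LP and 641 in Pr-LP. Irx2 and Pou3f4 did not pass the filter. In such bulk RNA, more cells that contain a transcript and more of it in each cell cannot be told apart.

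In the list of macrophage markers a single gene was higher in Pr-HP. Of 5 macrophage markers, Cd68, a lysosomal glycoprotein, had 1785 in Pr-HP against 194 ± 16.6 in the responder cells (SD, n = 3; limma adjusted p = 0.0446). The other 4 (Csf1r, Adgre1, Lyz2 and Ptprc) did not pass the filter in any population and stood at 0.978 to 1.04 times the responder mean. The list summed to 2030 in Pr-HP and to between 436 and 443 in the responder populations, a difference that followed Cd68 alone. A further Cd68 probe set was below the filter, with 39.1 in Pr-HP against a responder mean of 37.8. The Cd68 call was lost with the floor at the 40th percentile (limma adjusted p = 0.0851), without the filter (0.101), and without Pr-LP (0.160), C4-LP (0.109) or C4-HP (0.415). The part of such cells in the Gcg values was not tested.

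Ttr had a different order. Its probe set read 248 in Pr-HP, 1362 in C4-HP, 3135 in C4-LP and 435 in Pr-LP. Both clone 4 populations lay above both parental populations. Within each line the high-passage population was the lower one.

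Ttr was 6.63-fold lower in Pr-HP than the responder mean of 1644 ± 1372 (SD, n = 3). The log2 difference of -2.31 (SE 1.18) did not pass the test (limma adjusted p = 0.627), and it was -1.63 without C4-LP (limma adjusted p = 0.643) and -3.06 without Pr-LP (limma adjusted p = 0.390). Ttr was 1.75-fold lower in Pr-HP than in Pr-LP and 2.30-fold lower in C4-HP than in C4-LP. Between the lines it was 7.20-fold higher in C4-LP than in Pr-LP and 5.49-fold higher in C4-HP than in Pr-HP, so that the difference between the lines exceeded that between passages at both passage ranges. Each of these ratios compares 2 single arrays and was not tested.

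Among 7 liver markers, the summed intensity was 1157 in Pr-HP, against 1352 in C4-HP, 1209 in C4-LP and 1296 in Pr-LP, and albumin (Alb), the leading liver secretory protein, did not pass the filter. Thus the liver list varied little while Ttr spanned 12.6-fold. Retinol-binding protein (Rbp4), which transthyretin binds in plasma, read 60.5 in Pr-HP, 61.6 in C4-HP, 77.4 in C4-LP and 247 in Pr-LP, and was near or below the floor of chip A outside Pr-LP. Its order was therefore not that of Ttr.

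Ppy encodes pancreatic polypeptide. Its single-gene probe set read 128 in Pr-HP, 142 in C4-HP, 118 in C4-LP and 361 in Pr-LP. Only Pr-LP stood apart, with the other 3 populations within 1.21-fold. Pr-LP alone exceeded the 40th percentile of chip A (152), so this probe set passed the filter only through that population. Its family probe set, whose probes may be shared with similar transcripts, read 560 in Pr-HP, 549 in C4-HP, 524 in C4-LP and 810.5 in Pr-LP, again with Pr-LP as the highest.

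For Ppy the value in Pr-HP was 2.82-fold lower than in Pr-LP by the single-gene probe set and 1.45-fold lower by the family probe set. C4-LP was 3.05-fold and 1.55-fold lower than Pr-LP. C4-HP stood at 1.20 and 1.05 times C4-LP. The 2 probe sets therefore shared the direction but not the size of the difference from Pr-LP. Against the responder cells, which include Pr-LP, the log2 differences of Pr-HP were -0.51 (SE 0.72, limma adjusted p = 0.865) and -0.14 (SE 0.30, limma adjusted p = 0.920).

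Markers of other cells that also stood highest in Pr-LP were Rbp4 (values above), Slc7a2 and the duct keratin Krt19, which read between 56.4 and 57.6 in Pr-HP, C4-HP and C4-LP and 223 in Pr-LP. Of the other duct markers, Krt7 was also highest in Pr-LP, with 1235 in Pr-HP, 1564.5 in C4-HP, 1586 in C4-LP and 2084.5 in Pr-LP, while Sox9 was lowest there (688 in Pr-LP) and Muc1 was highest in C4-HP. The duct list (5 of 7 genes measured) summed to between 2496 and 2891 in Pr-HP, C4-HP and C4-LP and to 3497 in Pr-LP. The δ-cell markers Hhex and Rbp4 summed to 184 in Pr-HP, 201 in C4-HP, 225 in C4-LP and 391 in Pr-LP. This followed Rbp4 alone, since Hhex did not pass the filter and was not highest in Pr-LP. Hhex read 124 in Pr-HP, 140 in C4-HP, 148 in C4-LP and 144 in Pr-LP, and the δ-cell hormone gene Sst was nearly level. The acinar list was also highest in Pr-LP. The part of cells with any of these markers in the Ppy values was not tested.

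Pyy and Sst were nearly level. Pyy, the gene next to Ppy on the chromosome, read 244 in Pr-HP, 221.5 in C4-HP, 263 in C4-LP and 256 in Pr-LP, a span of 1.19-fold. Sst, which encodes somatostatin, read 206.4 in Pr-HP, 191 in C4-HP, 211 in C4-LP and 206.1 in Pr-LP, a span of 1.10-fold. The differences between Pr-HP and the responder cells were -0.01 for Pyy (SE 0.14, limma adjusted p = 0.988) and 0.03 for Sst (SE 0.12, limma adjusted p = 0.966). The values of Sst lay near the median of chip A, where the share of the signal that comes from its own transcript was not tested.

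Counted over the members, 3 of 10 probe sets differed by more than 2-fold between Pr-HP and the responder mean (both of Gcg higher, that of Ttr lower), against 2.27% of all probe sets. Between Pr-HP and Pr-LP 3 of 10 did (both of Gcg higher, 1 of Ppy lower), against 3.2%. Between C4-HP and C4-LP only Ttr did, being lower, against 1.3% of all. Between C4-LP and Pr-LP 4 of 10 did (both of Gcg and that of Ttr higher, 1 of Ppy lower), against 2.64%, and between C4-HP and Pr-HP 3 of 10 (Ttr higher, both of Gcg lower), against 2.57%. These comparisons share arrays, and probe sets of 1 gene are not independent. The Ppy probe set counted here passed the filter only through Pr-LP, where it was highest. By limma at an adjusted p under 0.05, 0 of the 10 members were called, with 1 at an unadjusted p under 0.05, against 19 or 0.0814% of all probe sets (15 higher and 4 lower in Pr-HP).

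The median log2 difference between Pr-HP and the responder cells was -0.01 over the 10 probe sets and -0.01 over all, so the few large differences stood beside a majority that was level. In the clone 4 passage pair the median was -0.13 over the members and 0.00 over all.

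**Figure D3:**
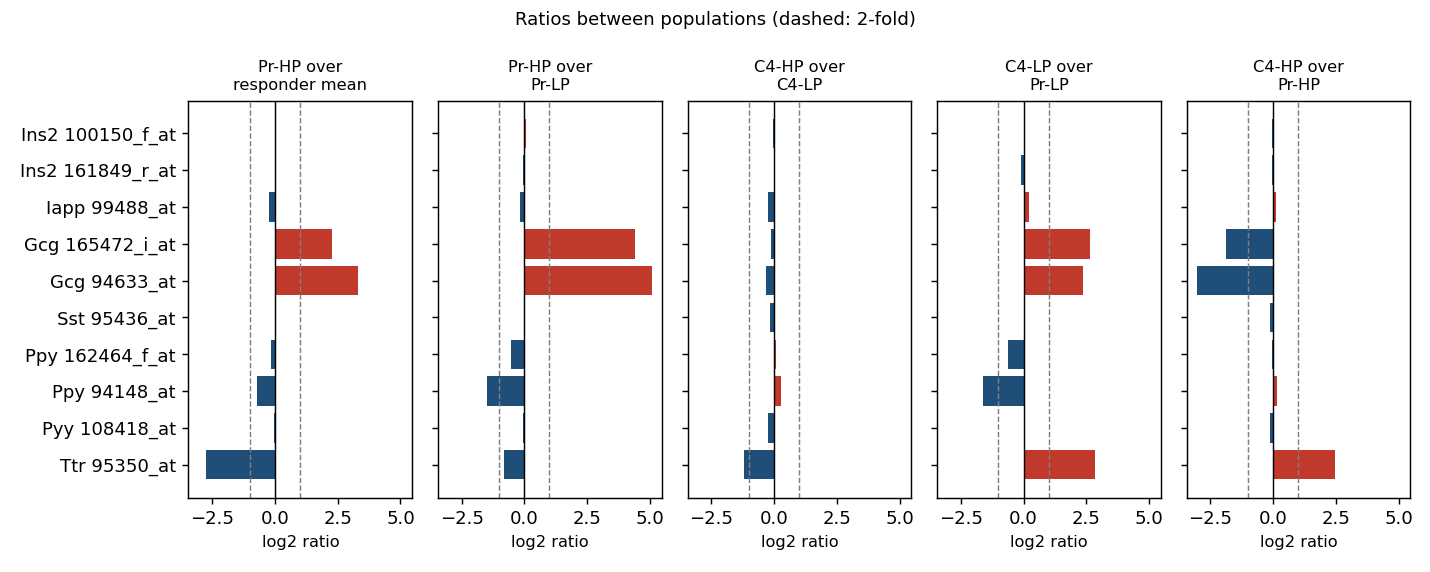
Log2 ratio of each probe set in the 5 comparisons, with the first-named population over the second, after single values or a responder mean under the floor were raised to it. Red bars are ratios above 0, blue bars ratios below 0, and dashed lines mark 2-fold. Gcg has long red bars for Pr-HP against Pr-LP and bars near 0 for C4-HP against C4-LP, and Ttr is red where clone 4 is set against parental cells.

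The probe sets of other genes whose 4 values were most like those of a member were found by the root mean square difference of their centred log2 values, over 4 populations, for members that spanned at least 1 log2 unit. Nearest to both Gcg probe sets was Edil3, which encodes a protein of the extracellular matrix, with 1216 in Pr-HP, 194 in C4-HP, 371 in C4-LP and 68.0 in Pr-LP. The root mean square differences were 0.39 and 0.40, against 0.44 between the 2 Gcg probe sets themselves. The neural adhesion molecule Nrcam came next for both (0.42 and 0.59). For the probe set of chip C the further 3 were Id1, Slc39a8 and Rtn1, and for that of chip A Ldha, Lct and Sox11.

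Nearest to Ttr was Pdyn, the precursor of the opioid dynorphins, at 0.19, with 473 in Pr-HP, 1966 in C4-HP, 4297 in C4-LP and 735 in Pr-LP. It was followed by Kdelr3, Emilin1, Tmem45a and Ndn at between 0.25 and 0.36. Of 19348 candidates 1 lay within 0.25 of Ttr and 11 lay within 0.5.

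Nearest to the single-gene probe set of Ppy were Syde2, Osbpl3, the transcription factor Klf11, Tph1 and H2-Q2, at between 0.05 and 0.10. Of these, Tph1 lay below the floor of 67.1 in all populations but Pr-LP. Osbpl3 lay below its floor of 29.2 in Pr-HP and C4-LP. Such values were compared as the floor, which levels them. Klf11 read 188 in Pr-HP, 221 in C4-HP, 157 in C4-LP and 513 in Pr-LP. Of 19347 candidates 54 lay within 0.25 of this probe set and 995 within 0.5. The distance is not scaled to the span, which was 1.61 log2 units for this probe set and 3.66 for Ttr. The counts therefore do not compare how common the shapes of the profiles are. The other Ppy probe set lay at 0.40, with 283 candidates nearer.

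**Figure D4:**
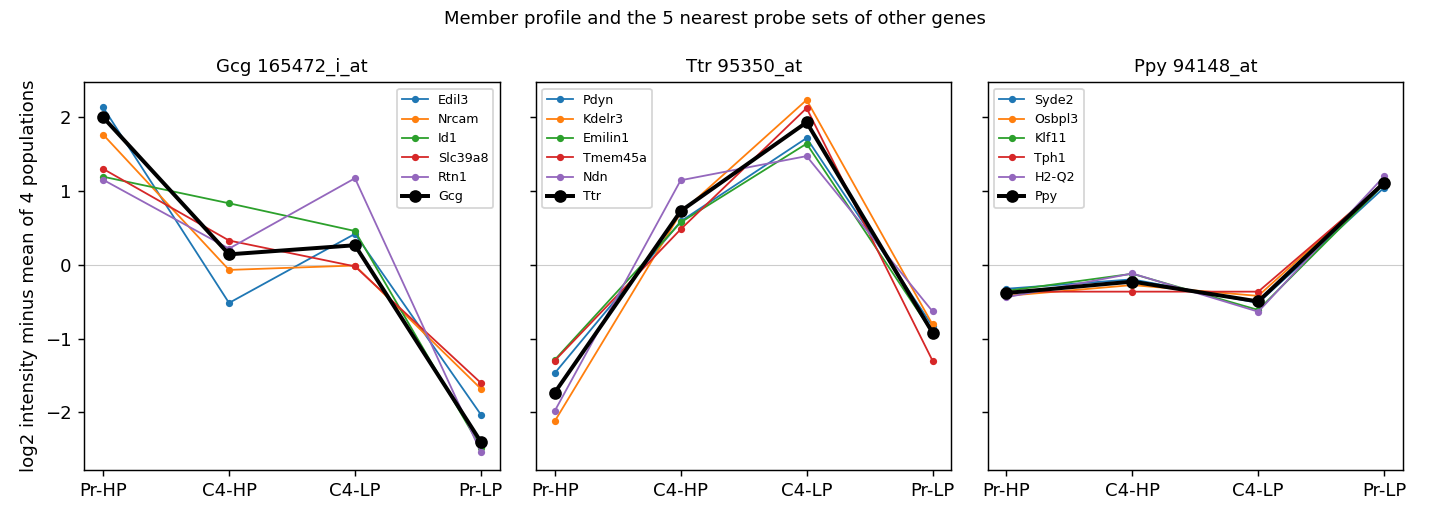
Log2 intensity minus the mean of the 4 populations for the Gcg probe set of chip C, Ttr and the single-gene probe set of Ppy (black), each with its 5 nearest profiles of other genes (colours). Lines only join the points of 1 probe set, since the populations have no order. With values under the floor raised to it, the profiles lie tightest around Ppy (0.05 to 0.10), wider around Ttr (0.19 to 0.36) and widest around Gcg (0.39 to 0.63).

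Other genes of the same pathways were taken from lists and represented by their most intense probe set. Of 28 other neuroendocrine peptide genes 25 were measured and 18 passed the filter, of which limma called 0. By the most intense probe sets of these 18, only Pdyn lay past 2-fold, 4.93-fold lower in Pr-HP (473, against 2333 ± 1809 in the responder cells, SD, n = 3; limma adjusted p = 0.643). A second Pdyn probe set read 278.5 in Pr-HP against a responder mean of 519, at 0.537 times. Secretin (Sct), a peptide of the glucagon family, had 3452 in Pr-HP against 4893 ± 380 in the responder cells, with all 3 of its probe sets lower in Pr-HP. Its other probe sets stood at 0.603 and 0.309 times the responder mean, so that 1 of them lay past 2-fold (limma adjusted p = 0.312 and 0.177). Neuropeptide Y (Npy), of the family of Ppy and Pyy, had 17927 in Pr-HP against 13743 ± 2127 in the responder cells. Cholecystokinin (Cck) had 13279 in Pr-HP against 9749 ± 3983. By their most intense probe sets the limma adjusted p of these 3 genes lay between 0.411 and 0.781. The median log2 difference was -0.09, against -0.01 over all 12271 genes that passed. Of these 12271, 167 lay past 2-fold higher in Pr-HP and 150 lower, which is the background for the counts past 2-fold in this and the following lists.

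Of 22 genes for receptors of these hormones 19 were measured and 15 passed, with 0 called and 0 past 2-fold. The median was 0.04. The largest difference was that of the insulin-like growth factor receptor Igf1r, with 1468 in Pr-HP, 689 in C4-HP, 959.5 in C4-LP and 625 in Pr-LP. It was 1.94-fold higher in Pr-HP than in the responder cells (limma adjusted p = 0.442), and its other 3 probe sets were 2.65-fold, 3.31-fold and 2.23-fold higher. Ramp2, a partner of calcitonin-family receptors, read 922 in Pr-HP, 466 in C4-HP, 1365 in C4-LP and 238 in Pr-LP, so that both Pr-HP and C4-LP were high.

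Of 30 transcription factor genes known to act at hormone genes 21 were measured and 14 passed, with 0 called and 1 past 2-fold. This was Insm1, a zinc finger factor of endocrine cells, with 489 in Pr-HP against 1141 ± 194 in the responder cells (SD, n = 3; limma adjusted p = 0.285). Neurod1, Isl1 and Hnf4a stood at 0.547, 0.619 and 0.625 times the responder mean, with limma adjusted p between 0.421 and 0.720. By a further probe set of each they stood at 0.492, 0.830 and 0.832 times it, so that those of Isl1 and Hnf4a were nearer to level (limma adjusted p between 0.373 and 0.703). The median of -0.33 lay below that over all genes.

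Of 23 plasma carriers and secreted liver proteins 18 were measured and 10 passed, with 0 called, 0 past 2-fold and a median of -0.13. All 8 peptidases that act on the hormones were measured and 6 passed, with 0 called among their most intense probe sets. Dpp4, which cleaves glucagon-like peptides, pancreatic polypeptide and peptide YY, lies next to Gcg on the chromosome and read 173 in Pr-HP against 198 ± 14.6 in the responder cells. A further probe set of Enpep (glutamyl aminopeptidase) read 465 in Pr-HP, 39.4 in C4-HP, 73.4 in C4-LP and 36.6 in Pr-LP, at least 6.93-fold higher in Pr-HP (limma adjusted p = 0.0428), while its most intense probe set was 1.13-fold higher. Only the Pr-HP value of this further probe set exceeded the 40th percentile of chip A (152), so it passed the filter through Pr-HP alone. Its C4-HP and Pr-LP values lay under the floor of 67.1 and were raised to it. The floor thus narrowed the responder spread behind the limma p-value, which therefore carries little weight. The Enpep call too was lost without Pr-LP, C4-LP or C4-HP. It was also lost with the floor at 1.0 unit or at the 40th percentile (limma adjusted p = 0.198 and 0.0770) and without the filter (0.0658).

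Of the genes 1 or 2 places away from a member on the chromosome 23 of 26 were measured and 18 passed. These include the members Ppy and Pyy, each a neighbour of the other. Of the 18, 2 lay past 2-fold between Pr-HP and the responder cells. Over all 12271 genes that passed, 167 lay past 2-fold higher in Pr-HP and 150 lower. Tyrosine hydroxylase (Th), next to Ins2, read 221 in Pr-HP, 719 in C4-HP, 2181 in C4-LP and 1943.5 in Pr-LP, while Ins2 was level. The bicarbonate transporter gene Slc4a10, near Gcg, read 155 in Pr-HP, 304 in C4-HP, 981 in C4-LP and 391 in Pr-LP, and was thus lowest where Gcg was highest. Neither passed the test (limma adjusted p = 0.417 and 0.570). Igf2, on the other side of Ins2, had 11886 in Pr-HP against 13080.5 ± 1468 in the responder cells.

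As a check of the labelled cell type, the β-cell markers Pdx1, Slc2a2 and G6pc2 passed the filter along with Ins2 and Iapp, and their sum without those hormone genes was 3271 in Pr-HP, 3723 in C4-HP, 2909.9 in C4-LP and 2945 in Pr-LP. In the marker lists other than that of macrophages limma called 0 genes. The sums lay between 2132 and 2449 for 7 acinar genes, between 566 and 632 for 4 endothelial genes and between 2395 and 2572 for 5 fibroblast genes. On each chip the 3′ over 5′ control ratio of Gapdh, which follows RNA integrity, was smaller in Pr-HP (0.867, 0.953 and 1.16 in the order A, B, C) than in any responder population (0.968 to 1.31 over the chips), while that of Actb was smaller in Pr-HP than in the responder populations on chips A and B but not on chip C (1.34 in Pr-HP and 1.30 in C4-LP). Their part in the differences was not tested. The array medians of a chip lay close together, between 214 and 216 on chip A, and 1 hybridisation a population limits the precision of every value.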

How the data were processed

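Total RNA of the 4 populations was converted to biotin-labelled cRNA and hybridised to chips A, B and C, 12 arrays in all. The authors deposited linear intensities, 1 for each probe set, made with the GeneChip software. The sources used here do not state how probes were summarised and arrays normalized, and the medians of the arrays of a chip were nearly equal. The 36899 probe sets include 198 controls, which were omitted. In the platform annotation 29131 of the others have 1 gene symbol, 724 several and 6846 none.

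Values under the 20th percentile of a chip (67.1, 58.5 and 29.2 on A, B and C) were raised to it and taken to log2. A probe set was tested if 1 array exceeded the 40th percentile, which kept 23347. Pr-HP was compared with the 3 responder populations in limma 3.58.1 under R 4.3.3 (lmFit, eBayes) within each chip, with the Benjamini-Hochberg adjustment over all chips and a threshold of 0.05. With 2 residual degrees of freedom and 3 different populations in place of replicates, the p-values measure the spread between populations and assume that Pr-HP, a single array a chip, varies alike. Ratios against the responder cells use the arithmetic mean of their deposited values, raised to the floor only if the mean itself is below it, while fitted differences are of log2 means of floored values. A ratio is called a lower bound where the lower side is under the floor. Other pairs are ratios of 2 arrays without a test.

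Named are all members, for each list the limma calls and up to 4 genes with the largest differences among those that passed, neighbours past 2-fold and the 5 nearest profiles; not every gene so chosen is printed. The further Enpep probe set and Igf2 were chosen after their values were seen. The members and lists were chosen with earlier results of these data known. Alternatives were other floors, no filter, quantile normalization, scaling by the 2% trimmed mean, and leaving out each responder population.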

Additional observations from a re-analysis of the deposited data

Results flagged for a closer look

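In 3 probe sets the passage differences of the parental line and of clone 4 had opposite signs and lay more than 1 log2 unit apart. Other members with opposite signs differed by less than that. The lines were each represented by 1 array a passage range, so that the difference between the lines was not tested. For Gcg, the log2 ratio of high over low passage was 4.39 in parental cells and -0.12 in clone 4 by the probe set of chip C, a difference of 4.52. By that of chip A it was 5.06 in parental cells and -0.33 in clone 4, a difference of 5.39, with the Pr-LP value at the floor. For the single-gene probe set of Ppy it was -1.49 in parental cells and 0.27 in clone 4, a difference of -1.76. Its values in Pr-HP, C4-HP and C4-LP lay below the 40th percentile of chip A (152). With the floor at that percentile the log2 ratio was -1.24 in parental cells and 0 in clone 4. The opposite signs of Ppy thus depended on the floor. For Gcg, the clone 4 change of -0.12 by the probe set of chip C was close in size to the typical change in that pair. The median absolute log2 difference there was 0.12 over all probe sets. The sign of this Gcg change therefore carries little weight.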

How the results depend on the processing

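The number of probe sets that limma called between Pr-HP and the responder cells depended on the processing. It was 19 as reported, 32 with the floor at 1.0 unit, 0 with the floor at the 40th percentile (2514 at an unadjusted p under 0.05), 101 without the filter and 45 with trimmed-mean scaling, and 24 with quantile normalization. Of the 19, these settings shared 15, 0, 9, 19 and 19. Leaving out a responder population gave 0 to 3 calls, with 0 without Pr-LP (2446 at an unadjusted p under 0.05), 3 without C4-LP and 0 without C4-HP (1697). The cause was not tested. No member was called in any of these settings, and the lowest adjusted p of a member was 0.160, for the Gcg probe set of chip C without Pr-LP. The counts past 2-fold in the other comparisons stayed within 1.5 times.

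Among the members, the limma log2 difference between Pr-HP and the responder cells ranged, with each responder population left out, between 1.79 and 3.13 for the Gcg probe set of chip C, between 2.86 and 4.05 for that of chip A, between -3.06 and -1.63 for Ttr and between -0.82 and -0.02 for the single-gene probe set of Ppy, lowest in size without Pr-LP. It changed sign for both Ins2 probe sets, Sst, Pyy and the family probe set of Ppy, all near 0. For the Gcg probe set of chip A, the floor at the 40th percentile lowered the bound on the log2 ratio of Pr-HP to Pr-LP to 3.88, against 5.06 as reported, and that of C4-LP to Pr-LP to 1.18, against 2.36. The single arrays limit every ratio.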
